A study of Homo sapiens with 4 samples.

Results

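The transcripts of 10 chaperone genes outside the HSP70 family, of 57820 gene rows counted, were followed in SY5Y neuroblastoma cells. They are HSPB1, HSPB8, CRYAB, HSP90AA1, HSP90AB1 and HSPH1, whose proteins work in the cytosol and nucleus, HSPD1, HSPE1 and TRAP1, whose proteins work in mitochondria, and SERPINH1, whose protein works in the endoplasmic reticulum (ER). The genes were selected on their response to SGSS05-NS in these same libraries, so their changes between SGSS05-NS and DMSO and the counts of calls among them are given as a description, with no p-value for any of them.

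SGSS05-NS is named in the study as an inhibitor of SETD8, a methyltransferase that modifies histone H4 and p53, and the comparison addresses the transcripts that change after treatment with it. The study also says that this series of compounds inhibits other methyltransferases, so a change is not assigned to SETD8 here. Total RNA was taken 12 h after addition of 3 µM SGSS05-NS (2 libraries) or of DMSO, the solvent (2 libraries). A legend of the study gives the same dose for SY5Y and its methods another, and the study writes the compound as SGSS05-NS3. Its discussion also lists the name SGSS05-NS among the more active members of the series. The name is used here as labelled. SY5Y is a human neuroblastoma line labelled MYCN wild type, a single line in which all 4 libraries were made. The study calls the replicates independent and the labels say nothing of separate cultures, so the spread between libraries may be partly technical. The libraries held 21463105 to 25350204 fragments assigned to genes. Fragments outside exons annotated on the counted strand made up 12.3% to 12.4% of all fragments with DMSO and 15.3% to 16.1% with SGSS05-NS. These include fragments opposite to exons, and the part of this difference in the results was not tested. In RNA from whole cultures, fewer cells with a transcript and less transcript per cell cannot be told apart.

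Heat shock proteins keep other proteins folded. HSP90 proteins bind clients that are nearly folded, such as kinases and steroid receptors, and pass through a cycle driven by ATP and by co-chaperones. Small heat shock proteins hold unfolded chains without ATP until HSP70 and its helpers refold them, and HSPH1 releases ADP from HSP70. HSPD1 and HSPE1 form the folding chamber of the mitochondrial matrix, TRAP1 is the HSP90 of mitochondria, and SERPINH1 binds procollagen in the ER. Many of these genes can be induced by heat shock factors, chiefly HSF1, which bind inverted repeats of the unit GAA, read as TTC on the other strand.

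Promoter windows from 250 bases before to 50 bases after the listed start were available for 9 of the 10 genes from RefSeq on GRCh38.p14. The windows were searched for 2 neighbouring units, GAANNTTC or TTCNNGAA, each of which reads the same on both strands, and for 3 units in a row, GAANNTTCNNGAA or TTCNNGAANNTTC, which contain the shorter patterns. At least 1 pair stood in a window of 6 of the 9 genes, against 16.2% of the 27305 genes with a window, and 3 units in a row stood in 4 of the 9, against 0.608% of those genes. By window, the shares over all 35116 were 13.5% and 0.490%. The members were not alone in this. Of 9 HSP70 and HSP40 partner genes with a window, 7 held a pair and 4 held 3 units in a row. Of 10 HSP90 co-chaperones with a window, 2 held a pair and 1 held 3 units. Where a gene has several listed starts, 1 window held the units and the others held none. Starts are numbered by chromosome coordinate. For HSP90AA1 and HSPD1, on the minus strand, the first is therefore the one furthest downstream. HSP90AA1 had its 3 units from 88 to 76 bases before the first of 2 listed starts, SERPINH1 from 76 to 64 before the first of 2 and HSP90AB1 from 165 to 153 before the last of 3. That window of HSP90AB1 held 2 separate runs of 3 units, and the one further upstream is given. HSPD1 had 4 units in a row, from 245 to 228 bases before the first of its 2 listed starts, and downstream of the second. HSPB1 and HSPB8 had pairs only, at 182 to 175 and 88 to 81 bases before the start. The window of HSPB8 held 2 separate pairs, and the one further upstream is given. None of these letter patterns stood in the windows of HSPH1, HSPE1 and TRAP1. A match of letters is a description of the sequence and was not tested as a binding site.

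The stretches with these units are shown because they set the genes with 3 or more units apart from those with 2. Each stretch was found by its sequence in GRCh37, the build of the counts. It is written 5′ to 3′ on the gene's own strand, with the run or pair placed above in capitals. The HSP90AA1 stretch also holds a TTCNNGAA pair outside that run, left in lower case. HSPB1 is at chr7:75931783-75931840 on the plus strand, outside annotated genes. HSPB8 is at chr12:119616623-119616680 on the plus strand, HSP90AA1 at chr14:102553432-102553494 on the minus strand and HSP90AB1 at chr6:44215490-44215552 on the plus strand, each within the gene's own annotated span and outside exons. HSPD1 is at chr2:198364785-198364814 on the minus strand and SERPINH1 at chr11:75273214-75273243 on the plus strand, where an exon of the same gene is annotated.
HSPB1: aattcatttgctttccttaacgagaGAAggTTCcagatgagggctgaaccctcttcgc
HSPB8: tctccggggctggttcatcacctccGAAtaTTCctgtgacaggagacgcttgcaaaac
HSP90AA1: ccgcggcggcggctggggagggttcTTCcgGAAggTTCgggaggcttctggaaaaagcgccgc
HSP90AB1: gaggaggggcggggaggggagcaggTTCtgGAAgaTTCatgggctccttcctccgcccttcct
HSPD1: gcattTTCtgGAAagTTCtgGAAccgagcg
SERPINH1: ttccaactTTCcaGAAgtTTCtcgggacgg

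Both cytosolic HSP90 genes had more transcript with SGSS05-NS, the stress-inducible HSP90AA1 by more than the constitutive HSP90AB1. Levels are given as CPM, the count scaled to library size with TMM factors. HSP90AA1 (ENSG00000080824.14, chr14:102547079-102606036, minus strand) had 1377 and 1442 CPM with DMSO and 4635 and 4046 CPM with SGSS05-NS. Both treated libraries were high, and the groups did not overlap. The fold was 3.08, a log2 fold change of 1.62 with a standard error (SE) of 0.11. HSP90AB1 (ENSG00000096384.15, chr6:44213903-44221625, plus strand) had 2140 and 2139 CPM with DMSO and 3426 and 3494 CPM with SGSS05-NS, again without overlap. Its fold was 1.62, a log2 fold change of 0.69 (SE 0.10).

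The balance of the HSP90 pair therefore moved within each library. The count of HSP90AA1 over that of HSP90AB1 was 0.644 and 0.674 with DMSO and 1.35 and 1.16 with SGSS05-NS, so that HSP90AA1 had the smaller count in both controls and the larger in both treated libraries. The pair took 0.348% and 0.353% of all gene fragments with DMSO and 0.834% and 0.743% with SGSS05-NS. Pseudogene rows named after HSP90AA1 held at most 1.02% of its own count and those of HSP90AB1 at most 0.664%, which bounds what was counted at these copies and not what was lost to multiple mapping.

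HSPH1 (ENSG00000120694.15, chr13:31709110-31736525, minus strand), an HSP110 protein that exchanges the nucleotide of HSP70, had 257 and 259 CPM with DMSO and 1007 and 898 CPM with SGSS05-NS. The control libraries lay close together, both treated libraries were higher, and the fold was 3.70 (log2 1.89, SE 0.10). The count of HSPH1 over that of HSP90AA1 was 0.186 and 0.179 with DMSO and 0.217 and 0.222 with SGSS05-NS. HSPH1 had a slightly larger fold than HSP90AA1, and the ratio was higher in both treated libraries than in both controls. A promoter window of HSP90AA1 holds 3 units in a row and that of HSPH1 none of the exact patterns searched. Whether such units relate to the fold was not tested.

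The small heat shock proteins differed widely in level. HSPB1 (ENSG00000106211.8, chr7:75931990-75933612, plus strand), known as HSP27, had 50.6 and 37.3 CPM with DMSO and 313 and 266 CPM with SGSS05-NS. The groups did not overlap, and the mean went from 44.0 ± 9.40 to 289 ± 32.9 CPM (SD, n = 2), a fold of 6.58 (log2 2.72, SE 0.14). HSPB1 had the widest spread between DMSO libraries relative to its mean among the genes above 1 CPM.

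HSPB8 (ENSG00000152137.2, chr12:119609360-119662660, plus strand), the partner of BAG3 in chaperone-assisted autophagy, was nearly absent with DMSO. It had 1 and 3 fragments with DMSO and 62 and 53 with SGSS05-NS, which is 0.0399 and 0.128 CPM against 2.79 and 2.25 CPM. Both treated libraries were above both controls, and the ratio of the summed counts scaled for library size was 30.5, with a 95% exact binomial interval of 11.6 to 114 that covers counting error only. The gene passed the filter on low counts only through the treated libraries, and its fitted log2 fold change of 4.84 (SE 0.47) depends on how counts near 0 are handled.

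CRYAB (ENSG00000109846.3, chr11:111779288-111794446, minus strand), the alpha-B crystallin, had 0 fragments in both DMSO libraries and in SGSS05-NS replicate 2 and 2 fragments in SGSS05-NS replicate 1. All 4 libraries were under the limit of 3 fragments that a count of 0 allows, 0.120 to 0.135 CPM, so no fold is given and no difference was detectable at this depth. HSPB2, its neighbour on the opposite strand, had 0 fragments in every library. Of 8 further small heat shock protein genes, 7 had a row and 2 passed the filter, and neither HSPB7 (0.750 CPM with DMSO, log2 fold change 0.69) nor HSPB11, listed now as IFT25 (17.7 CPM, −0.16), was called by edgeR at an adjusted p under 0.001. DESeq2 and limma also called 0 of these 2, and 0 had an unadjusted p under 0.05, a mark passed by 26.5% of all genes tested as an increase and by 27.0% as a decrease. HSPB3 and CRYAA had 0 fragments in all libraries, and HSPB6 had 5 fragments with DMSO and 9 with SGSS05-NS.

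**Figure D1:**
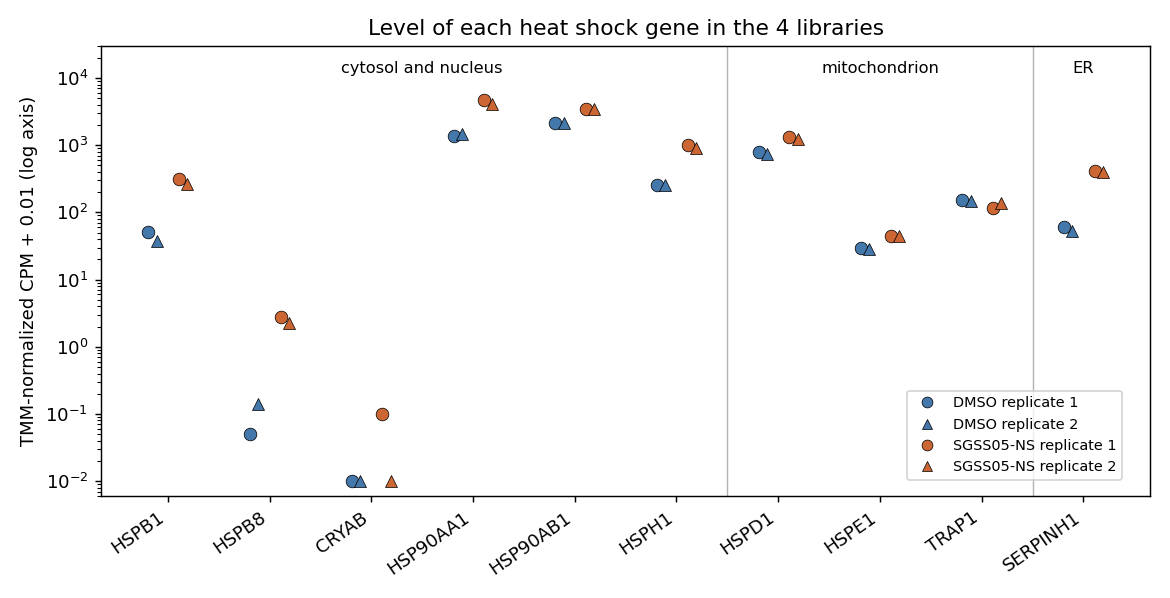
The plot gives the level of each of the 10 genes in the 4 libraries, as TMM-normalized CPM plus 0.01 on a log axis, with DMSO in blue, SGSS05-NS in orange, replicate 1 as circles and replicate 2 as triangles. Both treated points lie above both control points for 8 genes, TRAP1 has both treated points below the controls, and CRYAB lies at or near the bottom of the axis.

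The mitochondrial genes did not move as a block. HSPD1, the HSP60 ring protein, and HSPE1, its HSP10 lid, had moderately more transcript with SGSS05-NS, and TRAP1 had slightly less. HSPD1 (ENSG00000144381.12, chr2:198351308-198381461, minus strand) had 786 and 747 CPM with DMSO and 1337 and 1250 CPM with SGSS05-NS, a fold of 1.69 (log2 0.76, SE 0.10). HSPE1 (ENSG00000115541.6, chr2:198364864-198368173, plus strand) had 29.2 and 28.4 CPM with DMSO and 44.0 and 45.2 CPM with SGSS05-NS, a fold of 1.55 (log2 0.63, SE 0.10). Neither gene's groups overlapped.

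HSPD1 and HSPE1 lie head to head on chromosome 2, and the 4 units printed above stand between the first listed start of HSPD1, 228 bases away, and the start of HSPE1, 294 bases away, which puts them outside the window searched for HSPE1. The count of HSPD1 over that of HSPE1 was 26.9 and 26.3 with DMSO and 30.4 and 27.7 with SGSS05-NS, so the pair kept nearly the same proportion in all libraries. The count of HSPE1 may understate its level. In the annotation used here, a read-through gene, HSPE1-MOB4, covers 54.9% of its 306 coding bases and a smaller share of its summed exon bases. A fragment within bases shared by both genes is not counted for either. The study names another annotation release for its counts. Fragments lost in this way, or to multiple mapping at pseudogene copies, were not measured. The row of HSPE1-MOB4 itself was 0 in all 4 libraries. The 26 pseudogene rows of HSPE1 held 9.41% and 12.2% of its count with DMSO and 5.64% and 4.14% with SGSS05-NS, and the 18 rows of HSPD1 at most 1.91%.

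TRAP1 (ENSG00000126602.6, chr16:3701640-3767554, minus strand) had 155 and 145 CPM with DMSO and 117 and 138 CPM with SGSS05-NS. Both treated libraries were below both controls, by a small margin for SGSS05-NS replicate 2, and the log2 fold change was −0.24 (SE 0.10). It did not pass the threshold used for the calls. Leaving out 1 library at a time gave −0.36 to −0.13. DNASE1, on the opposite strand, shares 28.5% of TRAP1's exon bases, and with strand ignored the count of TRAP1 was 1414 and 1269 with DMSO and 994 and 1179 with SGSS05-NS, in place of 3892, 3398, 2605 and 3236. The count of HSPD1 over that of TRAP1 was 5.07 and 5.14 with DMSO and 11.4 and 9.09 with SGSS05-NS, where the ratio with SGSS05-NS was higher in both libraries.

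**Figure D2:**
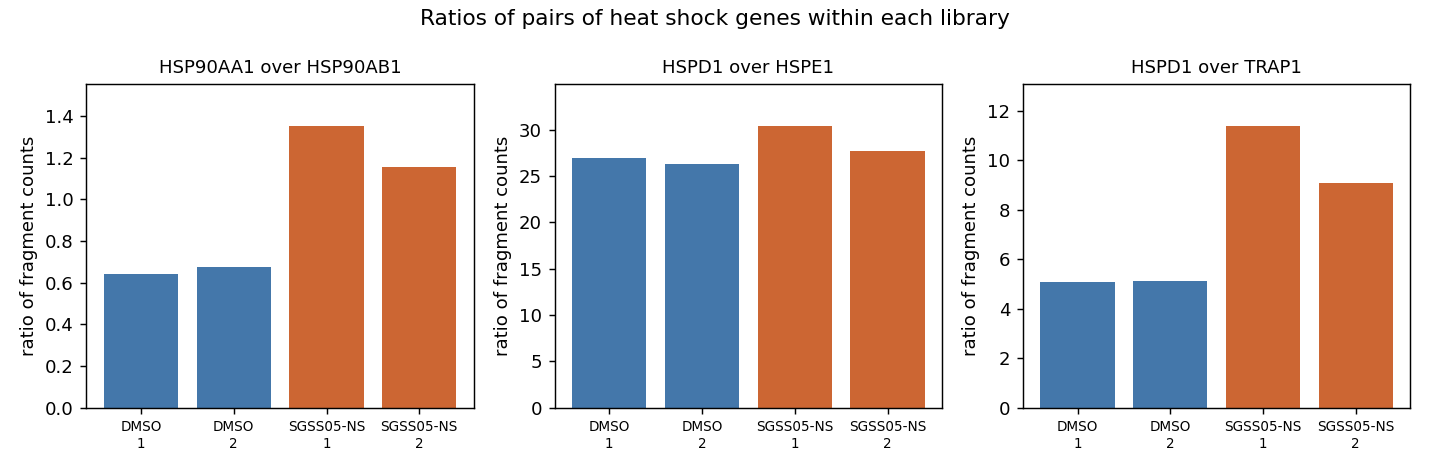
Each panel gives, for the 4 libraries, the fragment count of one gene over that of another, with bars from 0, DMSO in blue and SGSS05-NS in orange. The HSP90AA1 over HSP90AB1 ratio goes from 0.644 and 0.674 to 1.35 and 1.16, HSPD1 over HSPE1 stays between 26.3 and 30.4, and HSPD1 over TRAP1 goes from 5.07 and 5.14 to 11.4 and 9.09.

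SERPINH1 (ENSG00000149257.9, chr11:75273101-75283828, plus strand), the collagen chaperone HSP47, had the largest fold among the genes above 1 CPM with DMSO. It had 59.6 and 51.9 CPM with DMSO and 414 and 400 CPM with SGSS05-NS. Both treated libraries were far above both controls, with a fold of 7.30 (log2 2.87, SE 0.11). HSPB1, in another compartment, moved alike: the count of HSPB1 over that of SERPINH1 was 0.849 and 0.719 with DMSO and 0.754 and 0.666 with SGSS05-NS, values whose ranges overlapped.

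By compartment, the 5 cytosolic genes tested had a median log2 fold change of 1.89, with all 5 called higher at an adjusted p under 0.001. Of the 3 mitochondrial genes 2 were called higher, with a median of 0.63, and the ER gene was called higher, with 2.87. In all, 8 of 9 tested were called higher, against 6.37% of the 16468 genes tested. HSPB8, which passed the filter only through the treated libraries, counts in these calls and in the cytosolic median. With 10 counts required in every library HSPB8 was not tested, and 7 members were called higher. TRAP1 was not called, and CRYAB was not tested. Both treated libraries were above both controls for 8 of the genes (37.8% of all genes tested) and below for 1 (36.9%). Since this contrast chose the genes, nothing is read from these counts. The median log2 fold change over all genes tested was 0.01. The 10 genes took 0.480% and 0.478% of all gene fragments with DMSO and 1.17% and 1.04% with SGSS05-NS.

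**Figure D3:**
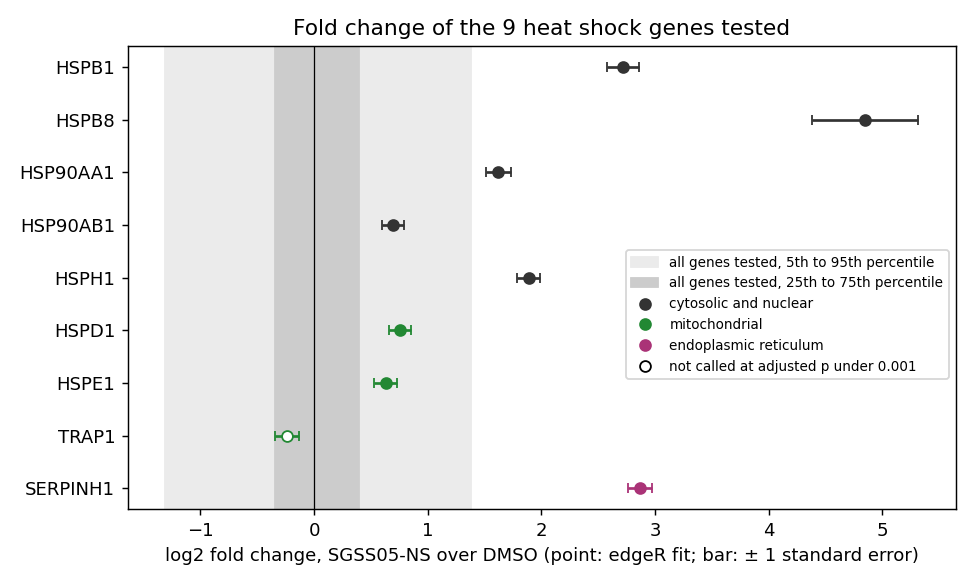
Points give the log2 fold change of SGSS05-NS over DMSO for the 9 genes tested and bars 1 standard error, with cytosolic genes in black, mitochondrial in green and the ER gene in purple, and grey bands span the 5th to 95th and 25th to 75th percentiles of all genes tested. HSP90AB1, HSPD1 and HSPE1 lie between 0.63 and 0.76, TRAP1 at −0.24, and the other 5 genes between 1.62 and 4.84.

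Levels can be set against each other only per length, here as CPM per kilobase of summed exons. With DMSO the order was HSP90AB1 (718), HSP90AA1 (277), HSPD1 (100), HSPH1 (30.7), TRAP1 (29.0), HSPB1 (27.1), HSPE1 (15.8), SERPINH1 (8.88), HSPB8 (0.0235) and CRYAB (0). HSPB1 ranged from 23.0 to 31.2 and was not separated from TRAP1 or HSPH1. With SGSS05-NS the order was HSP90AB1 (1161), HSP90AA1 (852), HSPB1 (178), HSPD1 (170), HSPH1 (114), SERPINH1 (64.8), TRAP1 (24.6), HSPE1 (24.4), HSPB8 (0.705) and CRYAB (0.0103). HSPB1 was not separated from HSPD1, nor TRAP1 from HSPE1. The order depends on the length used. With the length of the canonical transcript, chosen after the values were seen, HSP90AA1 and HSP90AB1 were level with SGSS05-NS (1345 ± 129 and 1354 ± 18.9 CPM per kilobase, SD). On that scale and treatment HSPD1 (576 ± 27.2) stood above HSPB1 (372 ± 42.3), and HSPE1 (80.0 ± 1.49) above TRAP1 (57.3 ± 6.43).

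The genes that work with the members are given as lists, with adjusted p from the edgeR fit over all genes. Among 14 HSP90 co-chaperones tested, 5 were called higher, against 6.37% of all genes tested, and the median log2 fold change was 0.27. The called genes were CHORDC1 (1.66, adjusted p = 7.4e-07), the HSP90-binding protein also named morgana, and the immunophilins FKBP4 (1.23) and PPID (0.50). AHSA2P (1.54), listed under a pseudogene symbol, and STIP1 (0.62), which joins HSP70 to HSP90, were called too. PPID was close to the threshold (adjusted p = 0.00098). The list had 4 calls higher with size factors of DESeq2, library size only or strand ignored. It had 6 with the likelihood ratio test, DESeq2, no filter on low counts or a replicate block. PTGES3, the p23 protein, had 0.50 (adjusted p = 0.0013) and CDC37, which brings kinases to HSP90, went from 122 to 119 CPM. PPP5C, a phosphatase that binds HSP90, had −0.46 (adjusted p = 0.0016).

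Among 8 HSP70 and HSP40 partners tested, 5 were called higher, against 6.37% of all genes tested, with a median of 0.70. HSPA6, an inducible HSP70, went from 1 fragment in both DMSO libraries together to 15646 with SGSS05-NS. The scaled ratio was 16584, with a 95% exact binomial interval of 2976 to 655066. HSPA6 passed the filter on low counts only through the treated libraries, and it counts in the calls and the median of this list. With 10 counts required in every library, 4 genes of the list were called higher. DNAJB1, the HSP40 that delivers clients to HSP70, rose by 3.48 (adjusted p = 2.1e-07), BAG3 by 3.06, the constitutive HSPA8 by 0.74 and DNAJA1 by 0.59. BAG3 went from 7.45 and 7.79 CPM to 56.7 and 70.3 CPM, and its partner HSPB8 is described above. In the HSP110 family, HSPA4L rose by 1.42 (adjusted p = 7.4e-06), from 35.1 to 94.1 CPM, while HSPA4 and HYOU1, relatives of HSPH1, had 0.01 and −0.01 and were not called.

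Of the 8 subunits of CCT, the cytosolic chaperonin that folds actin and tubulin, CCT4 (0.62) and TCP1 (0.56) were called higher, and 1 subunit was without DMSO replicate 2. CCT8 had 0.30 (adjusted p = 0.020). The list's median was 0.29, and its 2 calls stand beside 6.37% of all genes called higher. None of the 4 genes tested among the heat shock factors and their binding protein HSBP1 was called by edgeR, DESeq2 or limma, although 2 had an increase at an unadjusted p under 0.05, as had 26.5% of all genes tested: HSF1 had 0.35 (adjusted p = 0.018) and HSF2 0.28 (adjusted p = 0.044). HSF4 had 0.40 and HSBP1 −0.05. These are transcript levels and do not show the state of the HSF1 protein.

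Of 15 mitochondrial chaperones and proteases tested, TIMM44, which tethers HSP70 to the import channel, was called higher (0.66, adjusted p = 0.00033), and the median was 0.21. At an unadjusted p under 0.05 in the edgeR fit, 8 of the 15 had an increase and 1 a decrease. Over all genes tested these shares were 26.5% and 27.0%. The call of TIMM44 is 1 call of 15, near the 6.37% of all genes called higher. Without DMSO replicate 2 there were 2 such calls and without SGSS05-NS replicate 1 there were 3. HSPA9, the mitochondrial HSP70, had 0.37 (adjusted p = 0.0062), the co-chaperone GRPEL2 0.48, the stress transcription factor ATF5 0.73 (adjusted p = 0.0014) and the protease LONP1 −0.23. Of 16 ER chaperones tested, 2 were called higher, against 6.37% of all genes tested, and the median was 0.21. They were HERPUD1 (1.09, adjusted p = 1.5e-05) and DNAJB9 (1.19, adjusted p = 3.8e-05), both targets of the unfolded protein response. HSP90B1, the HSP90 of the ER, had 429 and 472 CPM with DMSO and 453 and 428 CPM with SGSS05-NS, groups that overlapped, with −0.03 (SE 0.10). The lectin chaperone CANX had 0.43 (adjusted p = 0.0026) and HSPA5 0.40, and neither was called.

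Most genes for folding and modifying collagen, the process SERPINH1 serves, were not called. Of 14 tested, 2 were called higher, against 6.37% of all genes tested. P4HA2, a subunit of prolyl 4-hydroxylase, rose by 2.07 (adjusted p = 2.5e-06), from 5.32 to 22.4 CPM. MIA3, which loads collagen into transport vesicles, rose by 0.51. MIA3 was close to the threshold, so that 1 gene was called without DMSO replicate 1, without DMSO replicate 2 or without SGSS05-NS replicate 1. P4HA1, another alpha subunit of that enzyme, had 0.53 (adjusted p = 0.0016). FKBP10 and PPIB, which fold collagen chains, had −0.05 and 0.01, and the list's median was 0.05. Of 11 collagen chains tested 4 were called lower, against 8.14% of all genes, with a median of −0.64. COL4A1 (−1.12) and COL4A2 (−1.15), the chains of basement membrane collagen, fell by similar amounts, and COL5A2 (−1.98) and COL18A1 (−0.82) fell too. COL4A2 had 198 and 199 CPM with DMSO and 96.0 and 83.2 CPM with SGSS05-NS, while COL6A1 and COL6A2 had 0.14 and 0.24 and were not called.

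**Figure D4:**
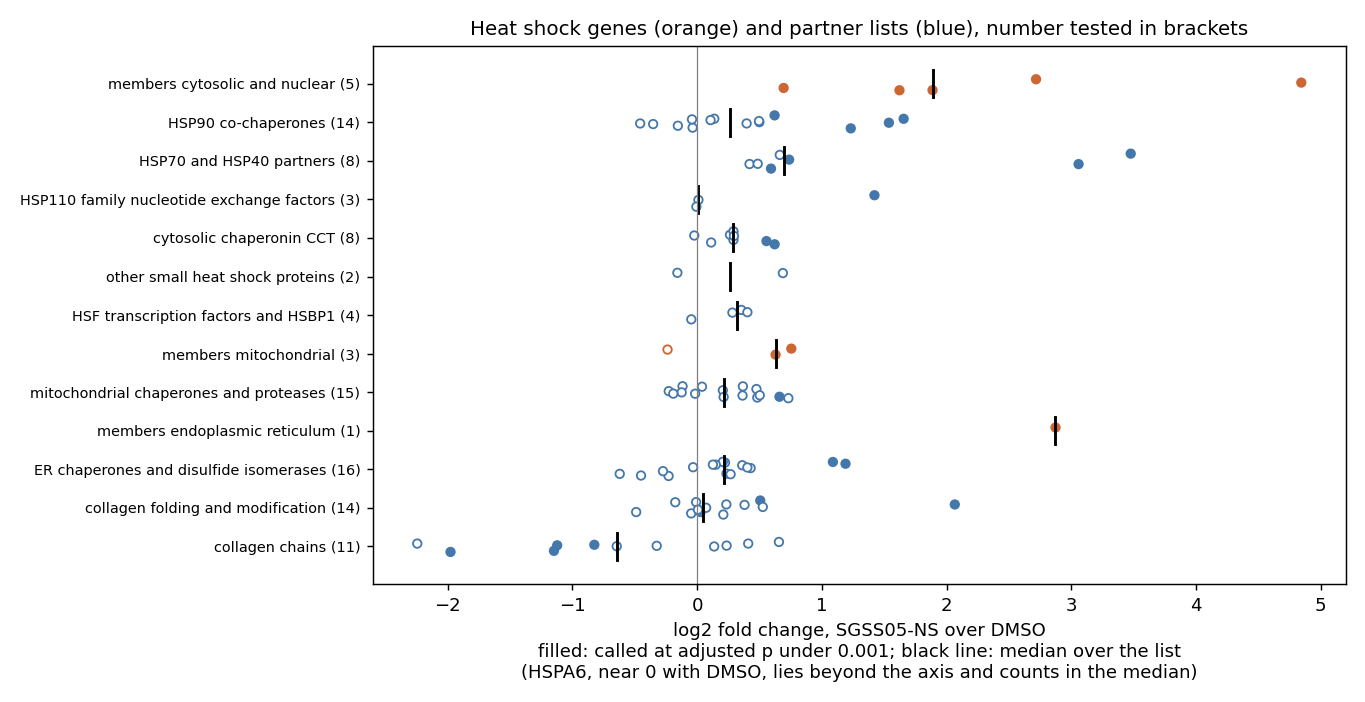
Each point is the log2 fold change of 1 gene, SGSS05-NS over DMSO, with the 9 tested members in orange, partner lists in blue, filled points for genes called at an adjusted p under 0.001 and a black line at each list's median. The medians of the partner lists lie between −0.64 for collagen chains and 0.70 for HSP70 and HSP40 partners.

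The cell identity was checked against markers. Noradrenergic neuroblastoma markers were present, with a summed level of 3548 and 3823 CPM with DMSO and 2242 and 2015 CPM with SGSS05-NS, and TH was nearly absent, at 2, 2, 1 and 0 fragments. Of 9 tested, 6 were called lower, against 8.14% of all genes tested, among them GATA2 (−0.91) and CHGA (−1.37). ISL1 (−0.61), DBH (−0.26) and CHGB (0.11) were not called. Mesenchymal markers summed to 226 and 255 CPM with DMSO and 170 and 168 CPM with SGSS05-NS. Of 7 tested, 1 was called lower (TWIST1, −0.77), beside the same 8.14% of all genes. COL1A2 had −2.24 (adjusted p = 0.0030) and SNAI2 0.30, and PRRX1 and DCN were at 0 throughout. Immune markers summed to 0.319 and 0.428 CPM with DMSO and 1.13 and 1.32 CPM with SGSS05-NS, nearly all from CD14, and CD3E was at 0. The part of these differences in the chaperone values was not tested.

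In 1 gene per compartment the most similar patterns were sought, by Euclidean distance of log2 CPM relative to the DMSO mean over the 4 libraries, among 11506 genes. The nearest were ZYX (distance 0.122), AIFM2 and MAMDC4 for HSP90AA1, FBXW7 (0.0145), C2orf72 and BAHD1 for HSPD1, and IRF1 (0.181), TENT5A and GADD45A for SERPINH1. With 4 libraries in 2 groups, such a distance mostly reflects the fold change, which was 1.64 on the log2 scale for ZYX, 0.75 for FBXW7 and 2.96 for IRF1.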

How the data were processed

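RNA-seq libraries of SY5Y cells were grouped by their labels. The labels name a TruSeq RNA kit and the study's methods a stranded, ribosome-depleted one. Per the submitters' processing notes and methods, reads were trimmed (Trimmomatic 0.30) and mapped by STAR 2.4.2a on hg19, and the authors deposited its gene counts as they were, 1 file a library. edgeR 3.10.5 is also named. The column stranded as the kit requires was used, since the opposite one held 4.64% to 5.05% of the stranded fragments. Summary rows were left out. Identifiers were matched without version to GENCODE release 44 on GRCh37: 55538 matched and 2282, with 4.52% of gene fragments, did not. The model (edgeR 4.0.16, R 4.3.3) used filterByExpr, TMM scaling and the quasi-likelihood test (Benjamini-Hochberg adjustment over 16468 genes, threshold 0.001), on both groups with no covariate, and the script was tested on simulated data. DESeq2 1.42.0, limma 3.58.1, other scalings, filters and strands and leaving out each library were alternatives. The 10 genes and all lists were chosen with earlier results of these data known. Named are every member, their direct relatives, the 3 genes with the smallest p of each list, and the 3 nearest patterns to the member with the highest mean CPM per compartment. Other genes were named after their values were seen, and 1 gene that the rule names is not reported here. HSPB11 was found under its current symbol and HSPB9 had no row here. Replicates differed by more than counting noise (chi-square per degree of freedom 8.76 with DMSO and 11.8 with SGSS05-NS). Depth limits genes under 3 fragments a library, and intervals cover counting error only.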

Additional observations from a re-analysis of the deposited data

How the results depend on the processing

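With 2 libraries a group, small differences such as that of TRAP1 are imprecise. The log2 fold changes of the 9 tested members kept their direction and their side of the threshold in all 134 recomputations, which is a description, since this contrast chose them. Leaving out 1 library gave 2.50 to 2.95 for HSPB1, 4.23 to 5.79 for HSPB8, 1.51 to 1.72 for HSP90AA1, 0.67 to 0.70 for HSP90AB1, 1.79 to 1.97 for HSPH1, 0.70 to 0.80 for HSPD1, 0.59 to 0.64 for HSPE1 and 2.75 to 2.96 for SERPINH1. HSPB8 was not tested when 10 counts were required in every library. Over all genes, 1049 were called higher and 1341 lower, 1037 to 1279 and 1322 to 1649 without 1 library. edgeR's likelihood ratio test called 2022 higher and 2267 lower, no filter on low counts 2034 and 2570, and an adjusted p under 0.05 3728 and 3903. Of 280 recomputed list counts, 251 stayed within 1.5 times the original. Many of these were counts of 0 that stayed at 0. Counts above 0 could move, as in the mitochondrial list, which went from 1 call higher to 4 with the likelihood ratio test.

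Replicate numbers are shared between the groups, but nothing says that they mark a shared culture, and the differences between replicates 1 and 2 correlated at 0.061 between groups over 16468 genes. With a replicate block, 1759 genes were called higher and 2007 lower, and no call on a member changed.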
